A study of Homo sapiens with 6 samples.

Results

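The data follow 10 genes of the thioredoxin, peroxiredoxin and superoxide dismutase systems in SCC-9 cells, a cell line from a squamous carcinoma of the tongue, after knockdown of the Ki67 isoform that contains exon 7. The 10 genes were TXN, TXNRD1, TXNIP, SRXN1, PRDX1, PRDX3, PRDX4, PRDX6, SOD1 and SOD2, picked out by gene symbol from 25349 genes in the count table. All 10 were among the 14661 genes with enough counts to be tested. The 3 siE7 libraries came from cells that received an siRNA targeting exon 7 of the Ki67 gene MKI67, and the 3 siNC libraries from cells given a control siRNA. In both groups a dose of 10 nM was delivered by lipofection on day 0 and repeated on day 2, with harvest on day 4, and the medium contained hydrocortisone, a steroid that all 6 libraries therefore share. The study designed more than 1 siRNA against exon 7, and which of them gave these libraries is not given in the sources used here, so the comparison rests on the siRNA effect in 1 cell line. Nothing in the labels says whether the replicates were separate cultures, so p-values measure the spread between these libraries, which may be technical.

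The comparison asked which transcripts move when the exon 7-containing isoform is lowered, in a study that also related this isoform to reactive oxygen species. Superoxide dismutases turn superoxide into hydrogen peroxide. Peroxiredoxins then reduce the peroxide with a cysteine, which most of them regain from thioredoxin, and thioredoxin is in turn reduced by thioredoxin reductase with electrons from NADPH. Sulfiredoxin repairs peroxiredoxins that peroxide has overoxidised, and TXNIP binds thioredoxin and holds it inactive. Several of these genes are known targets of NRF2, the transcription factor of the oxidative stress response, which binds the antioxidant response element, and TXNIP is known to respond to glucose through the factors MondoA and MLX.

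The libraries held 25608192 to 29550264 counts on genes. MKI67, the targeted gene (also the source of the Ki67 proliferation marker), stood at 1072, 1029 and 1077 CPM (counts scaled to library size with TMM factors) with siNC and at 112, 124.5 and 108 CPM with siE7, a log2 fold change of -3.21 (SE 0.11, adjusted p = 6.7e-08, edgeR). Counts per gene do not separate the isoforms with and without exon 7. The siE7 replicate 1 library stood apart from the other siE7 libraries: the chi-square statistic per degree of freedom was 61.4 and 73.0 for its pairs, against 5.55 to 6.26 for all other pairs within a group. Results are therefore also given without it. Keratins and other squamous epithelial markers were present, with 8 of 8 tested and a summed level of 21713 to 23094 CPM with siNC and 18749 to 24651 CPM with siE7. Of these 8 markers 5 were lower with siE7 at an adjusted p under 0.05 (edgeR), TP63, SFN, KRT5, EPCAM and CDH1, and 0 were higher. Over all tested genes 16.0% were lower and 18.0% higher at this threshold. KRT14, DSG3 and KRT6A did not pass it, with log2 fold changes of 0.31, 0.37 and -0.24. KRT14, the most abundant marker, lay above the controls in each siE7 library, with means of 9487 CPM (siNC) and 11775 CPM (siE7). Fibroblast markers summed to 16.5 to 24.2 CPM over the 6 libraries, nearly all of it COL1A1, leukocyte markers to 1.49 to 3.92 CPM and endothelial markers to 0.0725 to 0.492 CPM. In bulk RNA, fewer cells of a kind and less RNA per cell cannot be told apart, and the part of these markers in the results was not tested.

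The promoters of 2 members are shown because each holds a motif of the factors named above. RefSeq promoter windows, each 300 bases long with 250 before the transcript start, matched 7 of the 10 members (12 windows, GRCh38.p14), and PRDX1, PRDX6 and SOD1 had no window. The letters TGACNNNGC, the core of the antioxidant response element, were searched on both strands and were found in 4687 of 35116 windows (13.3%). Among the members only the 2 windows of TXNRD1 held them. The arrangement of a pair of CACGAG boxes 5 bases apart, as in a carbohydrate response element, was found in 2 of the 35116 windows (0.0057%), those of TXNIP and KCTD5. These letters are the boxes of the known TXNIP element itself and not a general consensus, so the match in TXNIP and its rarity follow from the choice of letters. In the following stretches of 80 bases, written 5′ to 3′ on the strand of the gene, capitals mark the antioxidant response element core in TXNRD1 and the CACGAG pair with the bases between in TXNIP.
TXNRD1, first start, chr12:104215648-104215727, plus strand: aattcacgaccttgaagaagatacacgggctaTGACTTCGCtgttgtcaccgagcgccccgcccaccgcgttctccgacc
TXNRD1, second start, chr12:104286898-104286977, plus strand: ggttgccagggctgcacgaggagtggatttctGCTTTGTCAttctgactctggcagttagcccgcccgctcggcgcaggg
TXNIP, chr1:145996620-145996699, minus strand: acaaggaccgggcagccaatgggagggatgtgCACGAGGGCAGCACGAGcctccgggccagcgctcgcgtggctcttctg

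The core at the first TXNRD1 start began 99 bases upstream and read on the gene's own strand, and that window held a further match on the opposite strand that began 8 bases upstream. At the second start it began 102 bases upstream and read on the opposite strand. The CACGAG pair of TXNIP began 88 bases upstream of the start. These are matches of letters and not measured binding sites.

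Of the 10 genes, 5 rose with siE7 and none fell. TXNIP, SOD2, PRDX4, TXNRD1 and SRXN1 were higher by 1.55 to 1.78-fold, whereas PRDX1, SOD1, TXN, PRDX6 and PRDX3 did not pass the test. Over all 14661 genes 34.0% were called (adjusted p under 0.05), 18.0% as higher and 16.0% as lower, which is the background for these counts. The median log2 fold change of the 10 genes was 0.39, beside 0.08 over all tested genes. DESeq2 and limma-voom each called the same number, 5, and no member lay lower at an unadjusted p under 0.05 by edgeR. With the study's further condition, a log2 fold change above 1 or below -1, 12.2% of all genes were differentially expressed and 0 of the 10, under all 14 alternative settings as well as in edgeR's fit, although each upper interval bound of TXNIP, SOD2, PRDX4 and TXNRD1 exceeded 1. The study also measured genes by qRT-PCR, with PRDX4 and SOD2 among its listed primers, and those measurements are not used here. In 7 of the 10 genes the siE7 libraries lay entirely above the siNC libraries and in none entirely below. Of all 14661 genes 47.6% had groups that did not overlap, 3652 with siE7 above and 3327 with siE7 below. For each such gene p was 0.1 in a two-sided exact permutation test, and 3 libraries against 3 allow no smaller value.

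**Figure D1:**
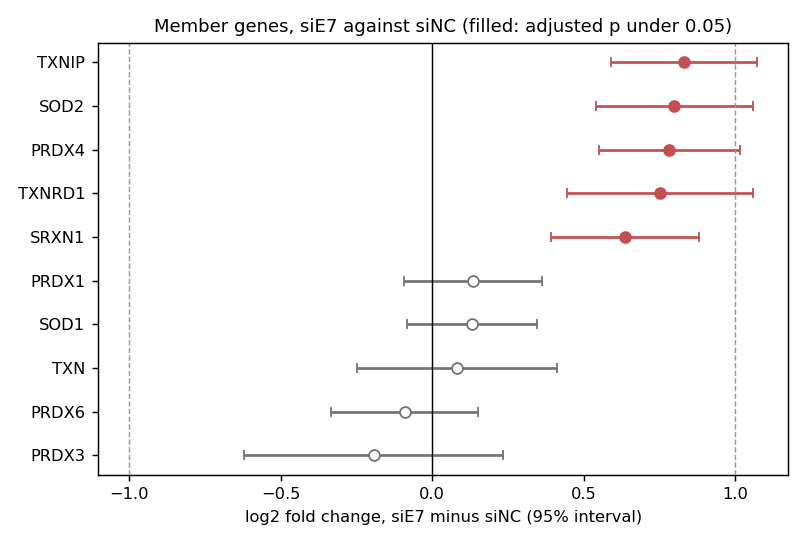
Fitted log2 fold changes (siE7 minus siNC, horizontal axis) of the 10 genes with 95% intervals, ordered by size; filled points have an adjusted p under 0.05 and dashed lines mark values of 1 and -1. The called genes form a block between 0.64 and 0.83, and the intervals of the other 5 include 0.

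In thioredoxin itself, TXN (chr9:110243810-110256507, minus strand), no change was called. It stood at 59.7, 58.3 and 60.8 CPM with siNC and at 47.8, 73.4 and 67.8 CPM with siE7. Replicate 1 of siE7 lay below all controls and the other siE7 libraries above them, so the groups overlapped, with means of 59.6 ± 1.25 and 63.0 ± 13.4 CPM (SD, n = 3 each). A log2 fold change of 0.08 was fitted (95% interval -0.25 to 0.41, adjusted p = 0.71). Without siE7 replicate 1 it was 0.18 with adjusted p = 0.016, and without siE7 replicate 2 it was -0.04 with adjusted p = 0.87, so the call for TXN turned on single libraries.

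TXNRD1 (chr12:104215779-104350307, plus strand) encodes the cytosolic thioredoxin reductase, a selenoenzyme, and rose by 1.68-fold. Its levels were 449, 399 and 488 CPM with siNC and 604, 826 and 821 CPM with siE7. The lowest siE7 library was again replicate 1, yet it lay above the highest control. Means were 445 ± 44.8 and 750.1 ± 127 CPM (SD, n = 3 each), for a log2 fold change of 0.75 (SE 0.14, 95% interval 0.45 to 1.06, adjusted p = 0.002, edgeR). With siE7 replicate 1 left out it was 0.83, with adjusted p = 3.1e-13 (edgeR), in a fit that called 8765 of 15011 genes. The smaller adjusted p is therefore not stronger support for TXNRD1. No exon of an annotated neighbour overlaps those of TXNRD1.

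TXNIP (chr1:145992435-145996579, minus strand), which encodes the arrestin-fold inhibitor of thioredoxin, had the highest fold change of the 10 genes. It stood at 79.6, 81.0 and 70.1 CPM with siNC and at 139.9, 131 and 139.3 CPM with siE7. The siE7 libraries were close together here, replicate 1 included, and all lay above the controls, with means of 76.9 ± 5.91 and 137 ± 4.91 CPM (SD, n = 3 each). The log2 fold change was 0.83 (SE 0.11, 95% interval 0.59 to 1.07, adjusted p = 2.2e-04, edgeR), or 1.78-fold.

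Ratios of counts within a library, which do not depend on how libraries are scaled, set the 3 genes against each other. There were 7.53, 6.84 and 8.03 TXNRD1 counts per TXN count with siNC and 12.6, 11.3 and 12.1 with siE7, a 1.61-fold difference, in a ratio that was chosen after the values had been seen. The siE7 replicate 1 library did not stand apart in this ratio, since both of its genes were low. There were 1.33, 1.39 and 1.15 TXNIP counts per TXN count with siNC and 2.92, 1.79 and 2.05 with siE7, a 1.71-fold difference. For TXNIP over TXN the siE7 replicate 1 library was the highest, and the log2 difference of 0.78 became 0.57 without it. Both ratios were higher in 3 of 3 siE7 libraries than in any control (p = 0.1, two-sided exact permutation test).

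**Figure D2:**
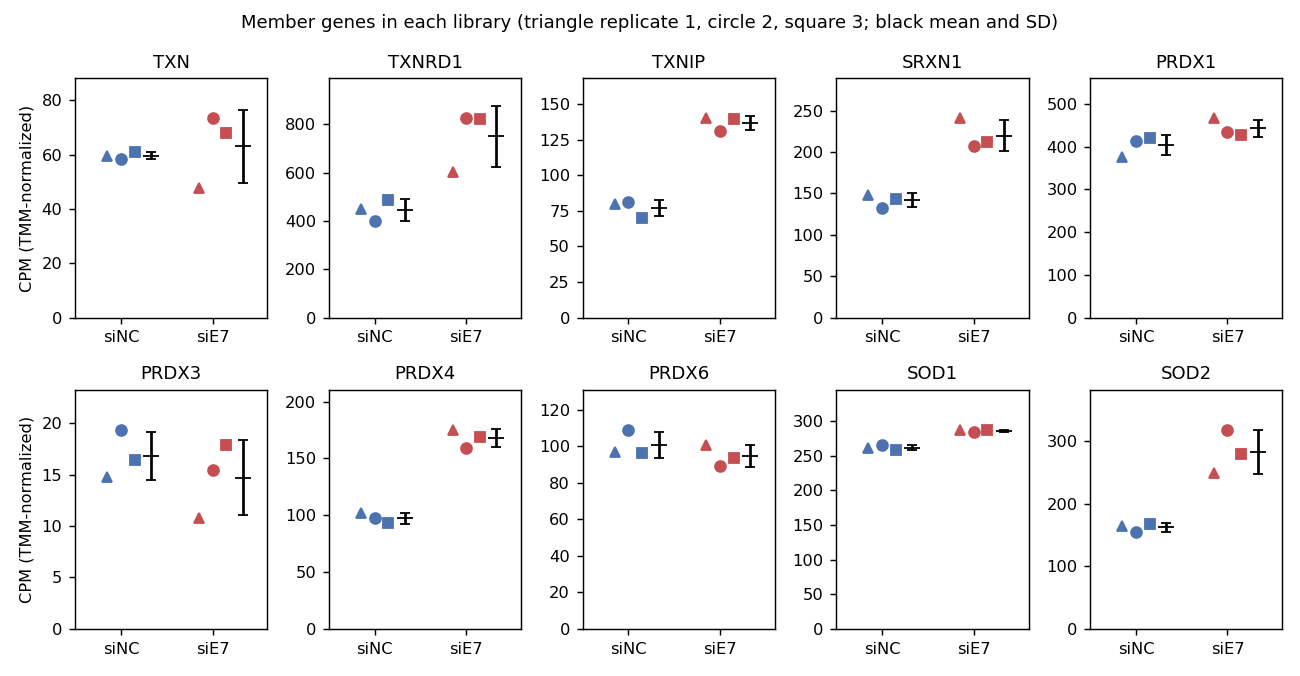
Level of each of the 10 genes in each library (vertical axis, CPM scaled by TMM factors, from 0), with siNC in blue and siE7 in red, the replicate shown by symbol and the mean with its SD in black. TXNIP and PRDX4 separate with little spread, while siE7 replicate 1 (triangle) is the lowest siE7 library for TXN, TXNRD1, PRDX3 and SOD2.

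Among the peroxiredoxins only PRDX4 was called. PRDX4 (chrX:23664262-23686397, plus strand), the peroxiredoxin of the endoplasmic reticulum, which also takes part in disulfide formation in new proteins, stood at 102, 97.5 and 92.7 CPM with siNC. With siE7 it stood at 175, 159.5 and 168 CPM, so that each siE7 library was above each control by more than the spread within either group (97.5 ± 4.81 and 168 ± 7.92 CPM, SD, n = 3 each). The log2 fold change was 0.78 (SE 0.11, 95% interval 0.55 to 1.02, adjusted p = 2.6e-04, edgeR), or 1.72-fold. It remained called in all 14 alternative settings, with log2 fold changes of 0.69 to 0.95.

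The cytosolic PRDX1 (chr1:45510914-45542732, minus strand) was measured at 377, 414 and 421 CPM with siNC and at 467, 435 and 428 CPM with siE7. These groups did not overlap, but the gap between the highest control and the lowest siE7 library was small beside the spread within each group. Its log2 fold change was 0.13 (95% interval -0.09 to 0.36, adjusted p = 0.34, edgeR). The interval leaves room for a 1.29-fold increase but not for the change fitted for PRDX4. Of the exon bases of PRDX1, 29.8% are shared with MMACHC on the opposite strand, a gene at 8.80 and 8.69 CPM in the siNC and siE7 means.

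PRDX6 (chr1:173477330-173488815, plus strand), a peroxiredoxin that draws on glutathione in place of thioredoxin, stood at 96.8, 109 and 96.4 CPM with siNC and at 101, 89.1 and 93.9 CPM with siE7, and the groups overlapped. Its log2 fold change was -0.09 (95% interval -0.34 to 0.15, adjusted p = 0.55, edgeR). Without siE7 replicate 1 it was -0.20 with adjusted p = 0.0065 (edgeR), a call for lower PRDX6 that the fit on all libraries did not make. The fit without siE7 replicate 1 called 8765 of 15011 genes. Without composition scaling the sign turned, to 0.08.

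PRDX3 (chr10:119167720-119178812, minus strand), the mitochondrial peroxiredoxin, was the lowest of the members in CPM and the least precise. It was measured at 14.7, 19.4 and 16.4 CPM with siNC and at 10.8, 15.4 and 17.9 CPM with siE7. The groups overlapped, and the log2 fold change was -0.19 with a 95% interval of -0.62 to 0.23 (adjusted p = 0.47, edgeR).

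Set against the whole family, PRDX4 gained in share. Levels per length (RPKM, CPM over the kilobases of all annotated exons) were summed over PRDX1 to PRDX6, PRDX2 and PRDX5 included. PRDX4 made up 5.37%, 4.64% and 4.75% of this sum with siNC and 8.11%, 8.52% and 8.23% with siE7. PRDX5, the most abundant peroxiredoxin at 712.5 RPKM with siNC, took 66.5% ± 1.01 with siNC and 62.0% ± 1.56 with siE7, and PRDX6 took 4.07% ± 0.11 and 3.75% ± 0.07 (SD, n = 3 each). In these 3 genes the groups did not overlap (exact two-sided permutation test, p = 0.1), and in PRDX1, PRDX2 and PRDX3 they did. The shares are parts of one sum, so a gain of PRDX4 lowers the other shares by construction. The lower shares of PRDX5 and PRDX6 are therefore not separate results. These shares were not among the planned comparisons. With the length of the canonical transcript the mean share of PRDX4 was 7.57% with siNC and 12.4% with siE7. PRDX5 and PRDX2 themselves were not called, with log2 fold changes of -0.07 (adjusted p = 0.64, edgeR) and -0.16 (adjusted p = 0.43, edgeR).

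SRXN1 (chr20:646615-653200, minus strand), which encodes sulfiredoxin, rose along with PRDX4. It stood at 149, 132 and 144 CPM with siNC and at 241, 207 and 212 CPM with siE7. Every siE7 library was above every control, with means of 142 ± 8.50 and 219.9 ± 18.3 CPM (SD, n = 3 each), and replicate 1 was the highest. The log2 fold change was 0.64 (SE 0.11, 95% interval 0.39 to 0.88, adjusted p = 0.0013, edgeR), or 1.55-fold, and it was 0.51 without siE7 replicate 1 (adjusted p = 9.0e-10, edgeR). The fit without that library called 8765 of 15011 genes, so the smaller adjusted p is not stronger support for SRXN1. Of the exon bases of SRXN1, 90.7% also belong to another annotated protein-coding gene on the same strand, ENSG00000270299. That gene is not among the counted genes. Reads on the shared bases could have been lost in counting, which was not tested.

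**Figure D3:**
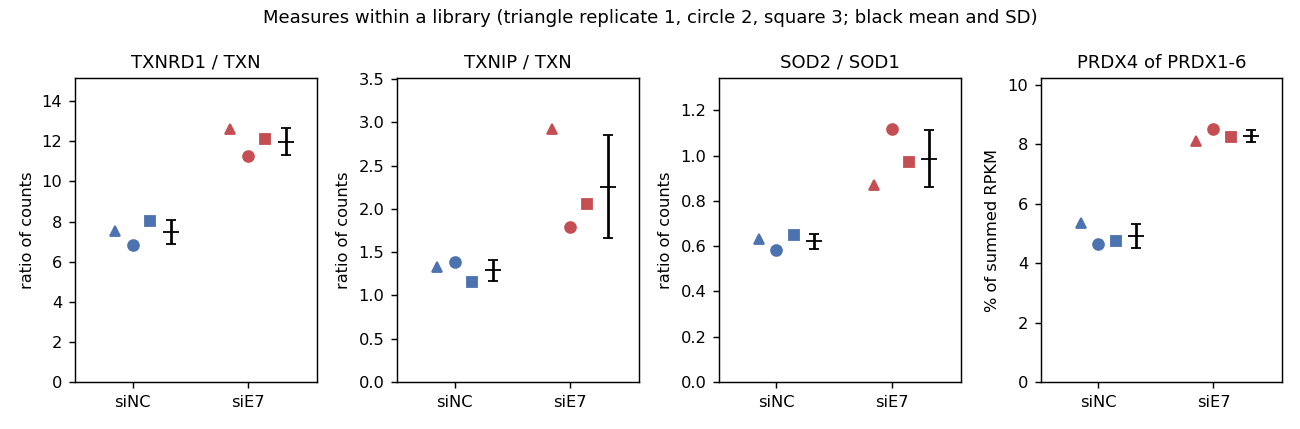
Measures within each library for siNC (blue) and siE7 (red), with the replicate shown by symbol and the mean with its SD in black; the first 3 panels give a ratio of counts and the last gives the percent that PRDX4 takes of the summed RPKM of PRDX1 to PRDX6. The groups do not overlap in any panel, and the spread within siE7 is widest for TXNIP over TXN.

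The superoxide dismutases differed from each other. SOD2 (chr6:159669069-159762529, minus strand), the manganese enzyme of the mitochondrial matrix, stood at 165, 154 and 168 CPM with siNC and at 249, 318 and 279.6 CPM with siE7. The siE7 libraries were all above the controls, with a wider spread (162 ± 7.10 and 282 ± 34.5 CPM, SD, n = 3 each) and with replicate 1 the lowest. The log2 fold change was 0.80 (SE 0.12, 95% interval 0.54 to 1.06, adjusted p = 4.7e-04, edgeR), or 1.74-fold. Its exons share 2.41% of their bases with WTAP and 0.733% with ACAT2, both on the opposite strand, and 5.18% with SOD2-OT1 on the same strand. WTAP, at -0.14 on the log2 scale, was not called (adjusted p = 0.43, edgeR), ACAT2 fell by 0.45 (adjusted p = 0.0063, edgeR), and SOD2-OT1 had 0 to 3 counts a library.

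SOD1 (chr21:31659666-31668931, plus strand), the copper and zinc enzyme of the cytosol, was measured at 261, 265 and 258 CPM with siNC and at 286, 285 and 287 CPM with siE7. The spread was small in both groups (261 ± 3.38 and 286 ± 1.43 CPM, SD, n = 3 each) and the groups did not overlap. In siE7 the SD was 0.501% of the mean, below the 1.09% that counting alone would give. The fitted log2 fold change of 0.13 (95% interval -0.09 to 0.35) nevertheless did not pass the test, at adjusted p = 0.33 by edgeR, which takes part of its estimate of the spread from all genes. Without composition scaling SOD1 was called at 0.30 (adjusted p = 0.017), and PRDX1 likewise at 0.30 (adjusted p = 0.016). That setting moved the median of all genes from 0.08 to 0.25, so relative to this median neither gene gained.

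There were 0.63, 0.58 and 0.65 SOD2 counts per SOD1 count with siNC and 0.87, 1.12 and 0.97 with siE7, so in 1 siE7 library the mitochondrial enzyme had more counts than the cytosolic enzyme, and in no control. The ratio was 1.58-fold higher with siE7, by 0.66 on the log2 scale (exact two-sided permutation test, p = 0.1), and by 0.75 without siE7 replicate 1. These are ratios of counts and not of molecules, since the annotated exons of SOD2 are far longer than those of SOD1.

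Per length of all annotated exons, the order with siNC was PRDX1 (240.1 ± 14.2 RPKM), SOD1 (132 ± 1.71), TXNRD1 (66.4 ± 6.68), TXN (59.0 ± 1.24), SRXN1 (56.0 ± 3.36), PRDX4 (52.6 ± 2.59), PRDX6 (43.6 ± 3.16), TXNIP (21.3 ± 1.64), SOD2 (8.94 ± 0.39) and PRDX3 (4.98 ± 0.69). Within this order TXNRD1 and TXN, TXN and SRXN1, and SRXN1 and PRDX4 had levels within their spread of each other, and the remaining neighbours lay apart at these lengths. With canonical transcript lengths SOD2 (11.5 ± 0.50 RPKM) and PRDX3 (10.8 ± 1.51 RPKM) were also within their spread. So were PRDX6 (59.7 ± 4.33 RPKM) and SRXN1 (56.0 ± 3.36 RPKM), with the mean of PRDX6 the higher. The length of SOD2 was taken from an annotated gene of that symbol with another identifier than the counted one, so its level per length and its place in the order rest on a gene model that may not be the one counted. With siE7 TXNRD1 was at 112 ± 18.9 RPKM, PRDX4 at 90.4 ± 4.27 and SRXN1 at 87.0 ± 7.23, all above TXN at 62.4 ± 13.3. The mean of PRDX4 thus passed that of TXN, from 52.6 against 59.0 RPKM to 90.4 against 62.4 RPKM. With canonical transcript lengths PRDX4 was already above TXN with siNC, at 102 and 80.8 RPKM, and with siE7 SRXN1 and TXN were level, at 87.0 ± 7.23 and 85.5 ± 18.2 RPKM, so this order depends on the length used. All counts on the 10 genes together made up 0.167%, 0.163% and 0.170% of the siNC libraries and 0.233%, 0.274% and 0.276% of the siE7 libraries.

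The separation of siE7 replicate 1 ran through the 10 genes unevenly. On the log2 scale it lay below the mean of the other siE7 libraries in PRDX3 (-0.62), TXN (-0.56), TXNRD1 (-0.45) and SOD2 (-0.26), and was the lowest siE7 library in those 4 genes. It was the highest in 5, SRXN1 (0.20), PRDX6 (0.14), PRDX1 (0.11), PRDX4 (0.10) and TXNIP (0.05), and in between in SOD1. The 5 called genes were called with any library left out. Without siE7 replicate 1, 7 members were called, TXN as higher and PRDX6 as lower in addition. The share of all genes called also grew, from 4990 of 14661 to 8765 of 15011 genes tested.

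**Figure D4:**
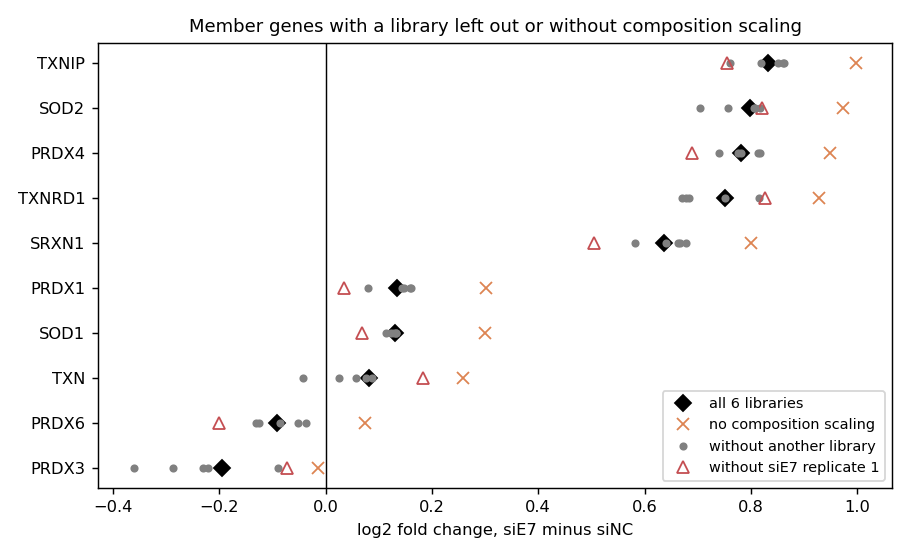
Log2 fold change (siE7 minus siNC) of each of the 10 genes in the fit of all 6 libraries (diamond), without composition scaling (cross), without siE7 replicate 1 (triangle) and without each other library (grey dot). The 5 called genes stay at or above 0.51 throughout, and TXN and PRDX6 each have points on both sides of 0.

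The surrounding pathway was followed in 8 lists of 101 genes, of which 91 were tested. Of these, 22 were higher and 15 lower, or 37 in all, and 52 had a log2 fold change above 0, with a median of 0.04. These counts, and those of each list below, stand beside 34.0% of all tested genes called, 18.0% as higher and 16.0% as lower. Leaving out a library changed these numbers, to 60 called without siE7 replicate 1 and to 24, 25 and 25 without siNC replicates 3, 2 and 1, 25 without siE7 replicate 2 and 28 without siE7 replicate 3. The fit without siE7 replicate 1 called 8765 of 15011 genes tested, and the fits without another library called 3153 to 3991. Those totals stand beside any count given with a library left out. The counts of the lists below are otherwise those of the fit of all libraries. Genes are named as the called genes with the smallest p-values in a list, up to 4, filled up by level. PDIA6, ERO1B, CAT, GPX2, ARRDC4, MLX, CBR1, NQO1, SLC7A11, OSGIN1, GCLM, ME1, FTH1, NFE2L2 and KEAP1 are named in addition, chosen after their values were seen.

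Among 11 other thioredoxins, thioredoxin reductases and glutaredoxins, 1 was higher and 1 lower. GLRX, the cytosolic glutaredoxin, was higher by 0.63 on the log2 scale (adjusted p = 0.034, edgeR), and NXN, the thioredoxin-like nucleoredoxin, fell by 0.50 (adjusted p = 0.014, edgeR). Both calls were lost without siNC replicate 1 or 3 and without siE7 replicate 2 or 3, and that of GLRX under DESeq2 as well, with adjusted p up to 0.15 for GLRX and 0.064 for NXN over the 14 alternatives. With any of these 4 libraries left out edgeR called 0 genes of the list. The cytosolic TXNL1 and the mitochondrial GLRX5 were not called, with log2 fold changes of -0.09 and 0.13.

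Among 18 tested genes of thiol oxidation in the endoplasmic reticulum, the compartment of PRDX4, 3 were higher and 3 lower. PDIA4, a protein disulfide isomerase, fell by 0.87 (adjusted p = 2.9e-04, edgeR), from 468 ± 27.5 to 255 ± 32.6 CPM (SD, n = 3 each). ERO1A, the oxidase that recharges such isomerases and releases hydrogen peroxide, rose by 0.79 (adjusted p = 0.0029, edgeR), from 52.1 ± 4.54 to 90.3 ± 19.3 CPM. These calls held in all 14 alternatives. TXNDC5 fell by 0.40 (adjusted p = 0.019, edgeR), a call lost without composition scaling and without any siNC library or siE7 replicate 3 (adjusted p up to 0.089), and 60.9% of its exon bases are shared with BLOC1S5-TXNDC5 on the same strand. TMX4 was higher by 0.38 (adjusted p = 0.024, edgeR), a call lost without any library other than siE7 replicate 1 and under DESeq2, no filter or the replicate block (adjusted p up to 0.11). The remaining calls were PDIA6 at -0.35 (adjusted p = 0.026, edgeR) and ERO1B at 1.33 (adjusted p = 0.048, edgeR), both lost without siNC replicate 1, siNC replicate 2 or siE7 replicate 2. The call of PDIA6 was also lost without siNC replicate 3, siE7 replicate 3 or composition scaling, and that of ERO1B with DESeq2 or RLE scaling, and ERO1B was not tested with at least 10 counts in every library. The list held 11 calls without siE7 replicate 1, in a fit that called 8765 of 15011 genes. Without siNC replicates 1, 2 and 3 it held 2, 2 and 3.

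Among 13 other tested peroxide and methionine sulfoxide reductases 4 were higher and 2 lower. The sestrins SESN2, at 1.00 (adjusted p = 6.2e-04, edgeR), and SESN1, at 0.98 (adjusted p = 0.0099, edgeR), both known to be induced by stress, rose. The selenoprotein GPX1, a glutathione peroxidase, fell by 0.77 (adjusted p = 7.2e-04, edgeR), from 307 ± 28.2 to 180.3 ± 19.6 CPM (SD, n = 3 each), and MSRA, which repairs oxidised methionine, fell by 1.33 (adjusted p = 0.0039, edgeR). These 4 calls held in all 14 alternatives. GPX1 shares 39.9% of its exon bases with a neighbour on the same strand. Catalase (CAT) and GPX2 were higher by 0.56 (adjusted p = 0.011, edgeR) and 0.96 (adjusted p = 0.027, edgeR), with the call of CAT lost without siNC replicate 2 or 3 and that of GPX2 without siNC replicate 1 or 2 or siE7 replicate 2 and under DESeq2. With siE7 replicate 1 left out 9 genes of this list were called, in a fit that called 8765 of 15011 genes. Without siNC replicate 2 it was 4.

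Among 6 other tested genes of superoxide production and copper delivery, 1 was higher and 3 lower. XDH, the xanthine oxidoreductase that can release superoxide, fell by 1.65 (adjusted p = 5.0e-06, edgeR), from 95.7 ± 8.46 to 30.6 ± 2.06 CPM (SD, n = 3 each), in all 14 alternatives. CYBA, a subunit of NADPH oxidases, fell by 0.47 (adjusted p = 0.014, edgeR), and CCS, the copper chaperone of SOD1, was higher by 0.46 (adjusted p = 0.019, edgeR). The call of CYBA was lost without siNC replicate 2 or 3 or siE7 replicate 2, and that of CCS without any siNC library (adjusted p up to 0.082 and 0.097). DUOX2, an oxidase that makes hydrogen peroxide, was lower by 0.66 with adjusted p = 0.044, and lost its call in 10 of the 14 alternatives. The list held 2, 1 and 1 calls without siNC replicates 1, 2 and 3, and 2 without siE7 replicate 2.

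Among 6 tested arrestin relatives of TXNIP and their regulators, 2 were higher and 2 lower. ARRDC3 rose with TXNIP, from 3.77, 4.04 and 3.37 CPM to 5.74, 14.1 and 15.4 CPM, by 1.66 on the log2 scale (adjusted p = 0.0023, edgeR), with siE7 replicate 1 closest to the controls, and ARRDC2 rose by 0.79 (adjusted p = 0.0031, edgeR). ARRDC1 fell by 1.27 (adjusted p = 1.9e-04, edgeR). MLXIP, which encodes MondoA, fell by 0.48 (adjusted p = 0.019, edgeR), a call lost without siNC replicate 2 or 3, without siE7 replicate 2 or 3 and without composition scaling (adjusted p up to 0.11). ARRDC4, at 0.26 (adjusted p = 0.34, edgeR), and MLX, at -0.14 (adjusted p = 0.40, edgeR), were not called, and their groups overlapped. A list of 7 proteins that thioredoxin reduces or binds also held NLRP3, the inflammasome receptor, which is known as a partner of TXNIP. NLRP3 was the 1 gene of the list that was called, and the 6 others were not. It fell by 2.09 (adjusted p = 8.3e-06, edgeR), from 20.0 ± 2.61 to 4.70 ± 0.41 CPM (SD, n = 3 each). Of its exon bases 66% are shared with a neighbour on the same strand. APEX1, RRM2 and RRM1, of which the latter are the ribonucleotide reductase subunits, were not called, with log2 fold changes of -0.06, -0.12 and 0.19. Without siE7 replicate 1, 6 of these 7 genes were called, in a fit that called 8765 of 15011 genes.

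NRF2 itself, encoded by NFE2L2, was not called. It stood at 18.4, 19.5 and 18.4 CPM with siNC and at 13.8, 25.5 and 25.2 CPM with siE7, with replicate 1 below and the others above the controls, and a log2 fold change of 0.20 (95% interval -0.26 to 0.66, adjusted p = 0.50, edgeR). KEAP1, its inhibitor, was at 0.34 (adjusted p = 0.059, edgeR). Of 10 tested genes of NRF2 and its regulators, 2 were higher and 1 lower. SQSTM1, the autophagy receptor that binds KEAP1, rose by 0.85 (adjusted p = 4.3e-04, edgeR), and MAFG, a partner of NRF2 on DNA, rose by 0.70 (adjusted p = 0.0013, edgeR). MAFF, a further partner, fell by 0.49 (adjusted p = 0.016, edgeR), a call lost without siNC replicate 1 or 3 or siE7 replicate 2 or 3 (adjusted p up to 0.087), and NFE2L1 was at 0.11 (adjusted p = 0.48, edgeR). The list held 5 calls without siE7 replicate 1, in a fit that called 8765 of 15011 genes. It held 2 without siNC replicate 1 or 3 or siE7 replicate 2 or 3.

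Of 20 other NRF2 targets, 9 were higher and 2 lower, with a median log2 fold change of 0.24. PIR, a redox-sensitive nuclear protein, rose by 1.94 (adjusted p = 4.8e-06, edgeR), from 8.57 ± 0.52 to 33.0 ± 2.85 CPM (SD, n = 3 each). HMOX1, which degrades heme, rose by 1.85 (adjusted p = 1.3e-05, edgeR), from 7.11 ± 0.53 to 25.7 ± 3.63 CPM. GSR, glutathione reductase, rose by 0.91 (adjusted p = 2.0e-04, edgeR), and GCLC, the catalytic subunit of the first enzyme of glutathione synthesis, rose by 0.99 (adjusted p = 3.3e-04, edgeR). SLC7A11 rose by 1.51 (adjusted p = 9.2e-04, edgeR) and OSGIN1 by 1.475 (adjusted p = 5.0e-04, edgeR). GCLM and ME1 rose by 0.95 (adjusted p = 1.0e-03, edgeR) and 0.91 (adjusted p = 0.0011, edgeR). FTH1 was higher by 0.33 (adjusted p = 0.026, edgeR). Lower in this list were CBR1, a carbonyl reductase, which fell by 0.80 (adjusted p = 4.6e-04, edgeR), and the quinone reductase NQO1, a standard NRF2 target, which fell by 0.34 (adjusted p = 0.025, edgeR). The call of NQO1 was lost without any library other than siE7 replicate 1, without composition scaling and with the replicate block (adjusted p up to 0.12). That of FTH1 was lost without any siNC library or siE7 replicate 2, and under DESeq2, RLE scaling, no filter or the replicate block (adjusted p up to 0.12). The other calls named here held in all 14 alternatives. Among the 10 genes followed here, at least TXN, TXNRD1, SRXN1 and PRDX1 are known NRF2 targets too. Of these TXNRD1 and SRXN1 were called and TXN and PRDX1 were not.

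**Figure D5:**
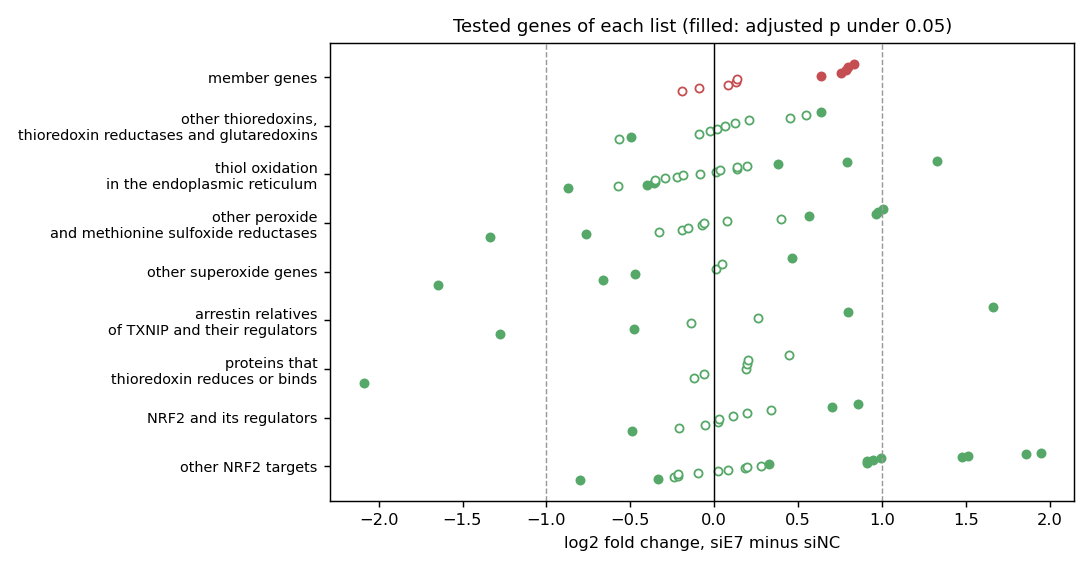
Log2 fold change (siE7 minus siNC) of every tested gene of the 10 followed here (red, top) and of the 8 pathway lists (green), filled where the adjusted p is under 0.05; dashed lines mark values of 1 and -1. The 10 genes lie between -0.19 and 0.83, inside the range of most lists, and the calls of 7 of the 8 lists lie on both sides of 0.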

How the data were processed

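RNA-seq counts of 6 libraries of SCC-9 cells were used, 3 siNC and 3 siE7, grouped by their titles. The authors made stranded mRNA libraries and sequenced paired ends on an Illumina NovaSeq, and the submitters' processing notes name HISAT2, DESeq2 and GRCh38 without versions. The counting tool, its annotation release and its use of the strand are not given in the sources used here. The deposited values are raw counts of reads per gene, 25608192 to 29550264 a library.

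Genes kept by filterByExpr were scaled by TMM and tested with the robust quasi-likelihood F-test of edgeR 4.0.16 (R 4.3.3), siE7 against siNC, with Benjamini-Hochberg adjustment over 14661 genes. A gene was called at an adjusted p under 0.05, and a differentially expressed gene also had a log2 fold change beyond 1, the study's thresholds. The script was tested on simulated data. The alternatives were limma-voom (limma 3.58.1), DESeq2 1.42.0, scaling by RLE, by the upper quartile or by library size alone (no composition scaling), a filter of at least 10 counts in every library, testing without a filter, a replicate block and leaving out each library, and the ratio of TXNRD1 to TXN was added after its values were seen. Permutation tests were exact and two-sided (scipy 1.17.1), and tables and figures were made with Python 3.11.15, numpy 2.4.6, pandas 2.3.3 and matplotlib 3.10.9. At this depth replicates differed by more than counting error over the genes as a whole, with a chi-square of 5.55 or more per degree of freedom.

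Positions come from GENCODE 44 on GRCh38, which matched 25283 of 25349 identifiers without their version. SOD2 was matched by symbol, since its identifier differs. Promoter sequences come from RefSeq. The 10 genes, the pathway lists and the rule for named genes were chosen with earlier results of these data known. The named genes are the 10, MKI67, pseudogenes of the 10 and, per list, the 4 called genes with the smallest p-values, filled up by level. Further genes were named in addition, as stated with the lists. The pseudogenes PRDX1P1 and PRDX3P1 had 0 to 2 counts a library. Same-numbered siNC and siE7 libraries did not deviate together, which cannot show whether they were made in pairs. The numbers were not taken as pairs, and the replicate block is given as an alternative. Exon 7 splicing is not analysed here.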

Additional observations from a re-analysis of the deposited data

How the results depend on the processing

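TXNIP, SOD2, PRDX4, TXNRD1 and SRXN1 were called as higher under all 14 alternatives, with log2 fold changes of 0.51 to 1.00 over the 5 genes. The number of members called ranged from 5 to 7, with the additional calls without composition scaling (PRDX1 at 0.30, SOD1 at 0.30) and without siE7 replicate 1 (TXN at 0.184, PRDX6 at -0.201). The direction of TXN turned without siE7 replicate 2 (-0.043), and that of PRDX6 without composition scaling (0.075). With a library left out TXN ranged from -0.043 to 0.184 and PRDX6 from -0.201 to -0.037. The median over the members was 0.33 with DESeq2 and 0.55 without composition scaling, against 0.39. The median of all genes was 0.09 with DESeq2, over 25349 unfiltered genes, and 0.25 without composition scaling, over 14661 genes. The DESeq2 median is therefore over another set of genes. With RLE scaling on the 14661 genes the median was 0.34 over the members and 0.03 over all genes. With a library left out the number of genes called ranged from 3153 to 8765 and that of the listed genes from 24 to 60, with the highest values without siE7 replicate 1. Fewer genes tested or fewer libraries are part of these settings, and the cause of the other differences was not tested.

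The replicate numbers were not taken as pairs, and deviations of same-numbered libraries correlated at -0.055, -0.019 and -0.079. Such correlations cannot show whether the libraries were made in pairs. With the replicate block 4947 genes were called against 4990 without it, the same number of members, 5, and 35 of the listed genes. The ratios of TXNIP to TXN and of SOD2 to SOD1 keep the same mean difference by construction when libraries are paired, and the exact permutation p was 0.25 with the block, the smallest that 3 pairs allow, against 0.1.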
